A study of Mus musculus with 21 samples.

Results

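The Lin28, Hmga and Igf2bp genes of the embryonic growth program were followed through mouse testis development in array data. The genes were Lin28a, Lin28b, Hmga1, Hmga2, Igf2bp1, Igf2bp2 and Igf2bp3, with Trim71 and L1td1, 2 further RNA-binding genes of early embryonic cells. Members were all probe sets that the platform's annotation assigned to 1 of these 9 gene symbols and to no other gene. The rule found 20 probe sets among the 45101 on the array, and they measured 7 of the 9 genes, out of 18193 genes with a probe set of their own. Hmga1 and Igf2bp2 had no probe set named for them alone and are not analysed here. The genes were chosen by name with their stage patterns in these arrays known, so every difference between stages of a member counts as used in the choice and is described without a test.

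LIN28A and LIN28B are RNA-binding proteins that block the maturation of let-7, a family of microRNAs whose level rises as embryonic cells differentiate. Mature let-7 in turn lowers the mRNAs of HMGA2, an architectural protein of chromatin, of the IGF2BP proteins, which bind and stabilise mRNAs including that of the growth factor IGF2, and of LIN28 and TRIM71 themselves. In the fetal testis, LIN28A is known as a protein of primordial germ cells and early spermatogonia, and HMGA2 as a protein of proliferating embryonic mesenchyme.

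All testis groups came from wild-type mice of CD-1, an outbred stock, and no group carried a treatment. RNA came from whole testes of male fetuses at gestation day (gd) 11, 12, 14, 16 and 18 and of pups at postnatal day (pnd) 2, which the labels place at Theiler stages 18, 20, 22, 24, 26 and 27. There were 5 arrays at gd11, each from a pool of 2, and 3 at gd12, each from a pool of 5. Each of the other 4 stages had 3 arrays of unpooled animals. The series' design text instead gives 1 animal per sample at every stage, which conflicts with the sample labels for gd11 and gd12, and the labels were followed. A reference array carried RNA from 8 whole newborns (4 male, 4 female) at pnd 0.5.

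Values are probe-set intensities on a linear scale. Stage values are mean ± SD (n = 5 at gd11, n = 3 elsewhere), and differences are on the scale log2(intensity + 22.4) with the standard error (SE) of a limma fit. Near background means an intensity under 71.6, which is the 40th percentile over the testis arrays. The number of arrays limits the precision, and at gd11 and gd12 the spread is between pools rather than animals. Brightness also depends on the probe set, so levels were compared between stages of 1 probe set and never between genes. In whole testes, fewer cells of a type and less RNA per cell cannot be told apart.

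The labelled tissue was checked with marker genes fixed for this report. The summed intensity of 8 Sertoli cell markers was 1690 to 3350 at gd11, 13200 to 23000 at gd12 and 38900 to 64400 at later stages. At gd11, Amh, which encodes anti-Müllerian hormone, stood at 9.61, near background, as did Fshr (11.3), Ptgds (52.3) and Cst9 (65.3). Dhh (73.3) was just above that level, and the Sertoli cell markers Sox9 (912), Clu (896) and Gata4 (676) were further above it. Sox9 did not follow the rise of the sum, with 819 at gd12 and 622 at gd14. The sum of 8 germ cell markers was 1290 to 3700 at gd11, 9390 to 33000 at gd12, 48900 to 57900 at gd14 and 8270 to 12200 at pnd2. The marker sums of some other tissues were highest early and those of others later. The sum of 12 neural markers reached 81400 and 47600 on gd11 replicates 16 and 17, 4400 to 9470 on the other gd11 arrays and 1210 to 4220 on the later arrays. The sum of 8 erythroid markers was 82000 to 89000 at gd11 and 536 to 578 at pnd2. Most of the gd11 erythroid sum came from the embryonic globins Hba-x (24800), Hbb-bh1 (25700) and Hbb-y (34100). Alas2 was instead higher at gd16 (2280) than at gd11 (393), and Gata1 higher at pnd2 (186) than at gd11 (98.5). Epb42, Klf1 and Slc4a1 were lower at pnd2 than at gd11. The sum of 7 mesonephros and duct markers was 3190 to 9600 at gd11 and 1020 to 1350 at pnd2. Emx2 had the largest gd11 mean among them (2080), and only Ret was higher at pnd2 (466) than at gd11 (172). The sum of 6 liver markers was instead 139 to 1240 at gd11 and 1500 to 2540 at gd16. Most of the gd16 liver sum came from Afp, with a mean of 355 at gd11 and 1890 at gd16. The other liver markers measured had gd16 means near background. The sum of 8 macrophage markers was 2240 to 3860 at gd11 and 3490 to 6790 at gd18. Lyz2 had the largest rise of these, from a mean of 155 to 1010. Mrc1 (670 and 633) and Fcgr1 (143 and 120) were lower at gd18 than at gd11. The part of these tissues in the members' levels was not tested, and some of the results are also given without replicates 16 and 17.

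Hmga2 was bright in the early gonad and near background on 3 of its 4 probe sets after birth. HMGA2 binds the minor groove of AT-rich DNA and is known for its part in embryonic growth, including body size. On the probe set whose log2 values averaged highest (1450780_s_at), the 5 gd11 arrays read 8894, 11941, 17475, 16621 and 16226, and the gd12 arrays 13983, 12769 and 13510. The gd14 arrays read 4189, 3894 and 4565. The gd11 and gd12 ranges overlapped, and every gd14 array lay below both. The gd16 arrays read 760, 1208 and 1017, the gd18 arrays 376, 344 and 396, and the pnd2 arrays 93.4, 115 and 152. From gd12 on, each stage lay wholly below the one before it.

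The mean of this Hmga2 probe set was 14200 ± 3670 at gd11, 13400 ± 612 at gd12, 4220 ± 336 at gd14, 995 ± 225 at gd16, 372 ± 26.3 at gd18 and 120 ± 29.5 at pnd2. The mean at gd11 was 3.38 times that at gd14, and the mean at gd14 was 35.1 times that at pnd2. The log2 difference was -1.71 ± 0.19 SE for gd14 minus gd11, -4.91 ± 0.21 for pnd2 minus gd14 and -6.62 ± 0.19 for pnd2 minus gd11. Set among all 14338 genes that passed the filter, Hmga2 had the 4th largest drop for pnd2 minus gd11 and the 5th largest for pnd2 minus gd14, but the 295th for gd14 minus gd11. These ranks describe the pattern for which the gene was chosen. The lowest gd11 arrays were replicates 16 and 17, the arrays with the highest neural sums, and without them the difference for pnd2 minus gd11 was -6.90.

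The other Hmga2 probe sets showed the same order of stages from gd14 on. Probe set 1422851_at went from 18000 ± 4890 at gd11 to 5390 ± 680 at gd14 and 46 ± 34.5 at pnd2, where its mean was near background, with a difference for pnd2 minus gd11 of -8.11 ± 0.27. Probe set 1450781_at went from 9690 ± 4380 to 1410 ± 197 and 38.9 ± 18.3 at the same stages (-7.22 ± 0.30). The dim probe set 1446196_at differed in the early order. Its gd12 arrays, at 668 to 688, lay above all gd11 arrays, at 186 to 660, and its values were near background on average from gd16 on. Its difference of -3.19 ± 0.31 therefore has little room below. The size of the Hmga2 difference thus depended on the probe set, between -3.19 and -8.11.

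**Figure D1:**
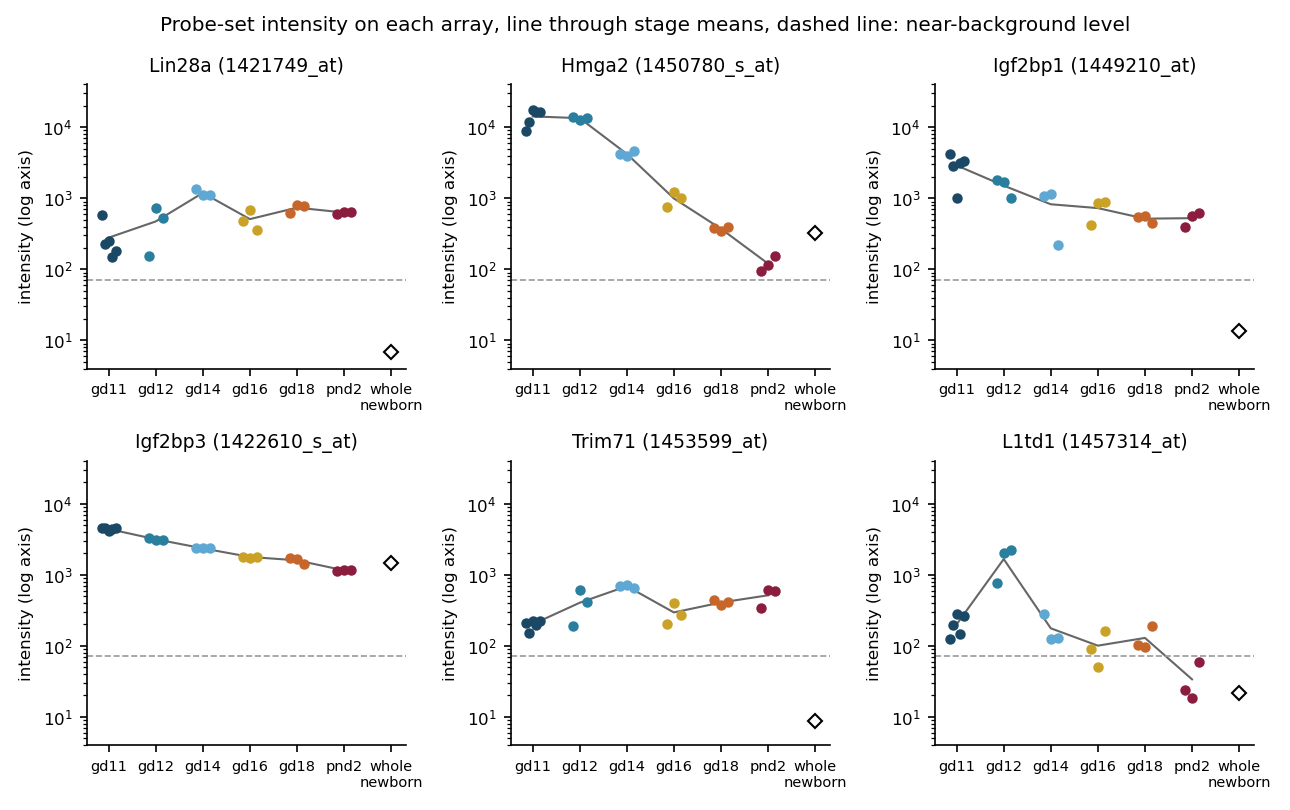
Intensity (log axis) of the probe set used for each of 6 genes on every array, by stage from gd11 to pnd2, with the whole-newborn array as an open diamond. Points are single arrays, lines join stage means, and the dashed line is the near-background level of 71.6. Hmga2 spans 17475 to 93.4, Igf2bp3 declines in small steps, Lin28a and Trim71 are highest at gd14, and L1td1 is highest at gd12.

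Igf2bp3 was lower at each successive stage, in steps far smaller than those of Hmga2. IGF2BP3 is an RNA-binding protein of embryonic tissues that binds many growth-related mRNAs. On probe set 1422610_s_at the gd11 arrays read 4488, 4623, 4068, 4379 and 4509, the gd12 arrays 3312, 3107 and 3066, and the gd14 arrays 2358, 2358 and 2349. The gd16 arrays read 1793, 1748 and 1806, the gd18 arrays 1708, 1643 and 1437, and the pnd2 arrays 1139, 1161 and 1161. No pair of adjacent stages overlapped on this probe set. The log2 difference was -0.90 ± 0.07 SE for gd14 minus gd11, -1.02 ± 0.08 for pnd2 minus gd14 and -1.91 ± 0.07 for pnd2 minus gd11, so the drop was spread almost evenly over the earlier and the later interval.

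All 6 Igf2bp3 probe sets were lower at pnd2 than at gd11 by a similar amount. Their log2 differences ran from -1.33 ± 0.14 (1433731_at) to -1.98 ± 0.15 (1450687_at). They differed in the later fetal stages. On 1433732_x_at the gd18 mean was 932 ± 82.5 and the gd16 mean 852 ± 45.4, with overlapping ranges, while on 1453957_a_at the gd18 arrays, at 282 to 473, lay below all gd16 arrays, at 499 to 564. The order of gd16 and gd18 was therefore not the same on every probe set.

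Igf2bp1 had its highest levels at gd11, with most of the drop before gd14. IGF2BP1 is a paralog of IGF2BP3 that stabilises mRNAs such as Myc and localises beta-actin mRNA. The one whose log2 values averaged highest (1449210_at) varied widely among arrays of a stage. Its gd11 arrays read 4133, 2867, 1021, 3125 and 3343, its gd14 arrays 1092, 1157 and 219, and its pnd2 arrays 392, 570 and 611. Replicate 18 at gd11 and replicate 12 at gd14 were low against their own stage, and all neighbouring stages overlapped. A steadier probe set, 1455223_at, read 2660, 2358, 1993, 2001 and 2024 at gd11, 1381, 1023 and 1286 at gd12, and 569, 531 and 586 at gd14. It then read 266 to 317 at gd16, 295 to 372 at gd18 and 163 to 275 at pnd2. On it gd11, gd12 and gd14 were fully separate, while gd16 overlapped with gd18 and with pnd2.

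On 1449210_at the log2 difference was -1.96 ± 0.45 SE for gd14 minus gd11, -0.34 ± 0.50 for pnd2 minus gd14 and -2.31 ± 0.45 for pnd2 minus gd11. Without gd14 replicate 12, the first was -1.21 and the second was -1.09, and without gd14 replicate 11 the second was 0.05. On 1455223_at the same differences were -1.92 ± 0.15, -1.23 ± 0.17 and -3.16 ± 0.15. The other 2 probe sets gave -2.18 ± 0.18 (1418761_at) and -2.11 ± 0.34 (1459825_x_at) for pnd2 minus gd11. All 4 probe sets thus had a gd14 minus gd11 difference between -1.60 and -1.99. They did not share the later part, where 1418761_at gave -0.20 ± 0.20 and 1455223_at -1.23 ± 0.17.

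Hmga2 and Igf2bp3 had the most alike course among the members, with a Pearson correlation of log2 values of 0.95 over the 20 testis arrays. This is a description, since the arrays share their stages. The 250 bases before the start of each gene are shown because the 2 genes went down together. They come from RefSeq (build GRCm38.p6), are written 5′ to 3′, and capitals mark a GC box, the motif bound by SP1 (GGGCGG, also searched as its reverse complement).

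Hmga2 promoter (chr10:120476470-120476719, minus strand): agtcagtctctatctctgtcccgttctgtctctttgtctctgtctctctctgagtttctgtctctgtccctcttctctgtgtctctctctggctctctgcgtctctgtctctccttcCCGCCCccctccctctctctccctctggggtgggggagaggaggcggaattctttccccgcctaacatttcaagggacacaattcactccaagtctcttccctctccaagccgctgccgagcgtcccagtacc

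Igf2bp3 promoter (chr6:49214955-49215204, minus strand): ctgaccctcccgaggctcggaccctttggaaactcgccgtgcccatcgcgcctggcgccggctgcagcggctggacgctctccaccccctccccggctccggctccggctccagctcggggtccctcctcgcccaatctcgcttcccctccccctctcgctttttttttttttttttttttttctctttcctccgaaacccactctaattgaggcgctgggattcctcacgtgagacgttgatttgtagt

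Both windows are rich in C and T on the strand of the gene. C and T made up 70.8% of the Hmga2 window, a share that 0.418% of all 32536 promoter windows reach, and 68% of the Igf2bp3 window, reached by 0.744%. This property was chosen after the sequences were seen. The Hmga2 window held 1 GC box and 8 CpG dinucleotides, and the Igf2bp3 window held 21 CpG and no GC box, where the median window has 6 CpG. A GC box on either strand is present in 33% of all windows. The Igf2bp3 window also held CCAAT and the E-box CACGTG, which are present in 33.8% and 6.04% of all windows on either strand. These are matches of letters, not sites shown to be bound.

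Lin28a, the blocker of let-7 maturation known from germ cells, was highest at gd14. On probe set 1421749_at the gd11 arrays (replicates 16 to 20) read 588, 228, 246, 151 and 180, and the gd12 arrays (replicates 13 to 15) 153, 731 and 530. The gd14 arrays read 1346, 1125 and 1098. The gd16 arrays read 485, 684 and 356, the gd18 arrays 627, 807 and 779, and the pnd2 arrays 594, 648 and 646. All gd14 arrays lay above every other testis array, while all other neighbours in the order of stages overlapped. On this probe set the gd11 and pnd2 arrays did not overlap, with 588 the highest of gd11 and 594 the lowest of pnd2.

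The mean of this Lin28a probe set was 278 ± 177 at gd11, 471 ± 294 at gd12, 1190 ± 136 at gd14, 508 ± 165 at gd16, 738 ± 97.1 at gd18 and 629 ± 30.9 at pnd2. The log2 difference was 2.16 ± 0.38 SE for gd14 minus gd11, -0.89 ± 0.42 for pnd2 minus gd14 and 1.27 ± 0.38 for pnd2 minus gd11. Without gd11 replicates 16 and 17, the last was 1.62. The other Lin28a probe set (1437752_at) had means of 183, 435, 1080, 369, 471 and 432 in order of age, and differences of 2.51 ± 0.33, -1.31 ± 0.37 and 1.20 ± 0.33. On 1437752_at the gd11 arrays (84.7 to 306) overlapped with the pnd2 arrays (298 to 558). Both probe sets thus placed gd14 highest and gd11 lowest by their means, but only 1421749_at separated gd11 from pnd2.

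Lin28b, the second LIN28 gene, was near background on every array. Its only probe set (1430803_at) read between 1.02 and 47.4 on the 20 testis arrays and 12.1 on the reference array. No stage stood apart, and it did not pass the filter on dim probe sets. The probe set gives no level for Lin28b, and the data do not show whether the gene was expressed.

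Trim71, a ubiquitin ligase and RNA-binding protein that is itself a let-7 target, followed a course like that of Lin28a. On probe set 1453599_at the gd11 arrays read 210, 152, 224, 194 and 224, and the gd12 arrays 191, 613 and 407. The gd14 arrays read 702, 719 and 650, the gd16 arrays 205, 405 and 274, the gd18 arrays 440, 369 and 411, and the pnd2 arrays 343, 601 and 597. The gd14 arrays lay above all other testis arrays, and every other pair of neighbours in the order overlapped. The log2 difference was 1.69 ± 0.27 SE for gd14 minus gd11, -0.45 ± 0.30 for pnd2 minus gd14 and 1.23 ± 0.27 for pnd2 minus gd11. The dimmer probe set 1456673_at gave 1.48 ± 0.31, -0.39 ± 0.35 and 1.08 ± 0.31, with a mean of 219 ± 43.4 at gd14 and near background at gd11, at 65.4 ± 22.1.

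The log2 values of Lin28a and Trim71 had a Pearson correlation of 0.84 over the 20 testis arrays. Their upstream windows are shown for this shared course, with the same source, build and capitals as for the windows of Hmga2 and Igf2bp3.

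Lin28a promoter (chr4:134018817-134019066, minus strand): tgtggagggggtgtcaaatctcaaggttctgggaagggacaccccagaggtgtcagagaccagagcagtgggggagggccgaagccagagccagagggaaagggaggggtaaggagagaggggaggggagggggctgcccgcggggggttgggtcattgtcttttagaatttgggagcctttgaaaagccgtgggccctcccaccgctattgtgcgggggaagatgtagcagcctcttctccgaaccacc

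Trim71 promoter (chr9:114564370-114564619, minus strand): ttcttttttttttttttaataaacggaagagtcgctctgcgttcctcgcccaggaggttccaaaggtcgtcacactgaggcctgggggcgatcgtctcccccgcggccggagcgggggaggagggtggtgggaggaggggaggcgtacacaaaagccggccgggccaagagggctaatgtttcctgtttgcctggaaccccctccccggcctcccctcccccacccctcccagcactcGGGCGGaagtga

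The Lin28a window is rich in A and G on the strand of the gene, with 37.2% C and T, a share at or below which 3.27% of all windows lie. The Trim71 window had 51.2%. The Trim71 window held 1 GC box and 17 CpG, and the Lin28a window held 7 CpG and none of the 5 motifs searched on either strand. These were the GC box, CCAAT, the E-box, the octamer ATGCAAAT that POU factors such as OCT4 bind, and the TATA box TATAAA. None of them overlaps another in its letters. The octamer is present in 1.62% of all windows and the TATA box in 12.3%, and neither was found in the 4 windows printed here.

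The target of LIN28, the let-7 family, was not analysed here. Its sequences are shown since they define the targets listed further on. In RefSeq's mouse entries, 11 of 1679 mature microRNA names carry the seed GAGGUAG (bases 2 to 8, in capitals), among them the following.

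mmu-let-7a-5p: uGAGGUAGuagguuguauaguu

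mmu-let-7d-5p: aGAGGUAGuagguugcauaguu

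mmu-let-7g-5p: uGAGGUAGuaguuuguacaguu

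LIN28 proteins bind GGAG in the terminal loop of let-7 precursors. GGAG was found in 10 of the 13 hairpins that give this seed (76.9%), against 447 of all 1005 hairpins (44.5%). It was counted anywhere in the hairpin, not in the loop alone, and the mature let-7e and let-7k hold it themselves. The hairpin of let-7g (chr9:106178840-106178927, plus strand, GRCm38.p6) carries it after the mature arm, in capitals.

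Mirlet7g hairpin: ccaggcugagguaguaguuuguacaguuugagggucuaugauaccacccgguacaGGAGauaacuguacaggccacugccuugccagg

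L1td1, an RNA-binding protein derived from a LINE-1 element and known from pluripotent cells, had a peak at gd12. On its only probe set (1457314_at) the gd11 arrays read 124, 193, 277, 148 and 260, and the gd12 arrays 772, 2009 and 2205. The gd14 arrays read 276, 125 and 127, the gd16 arrays 89.4, 50.6 and 161, the gd18 arrays 101, 95.8 and 190, and the pnd2 arrays 24, 18.2 and 58.8. The gd12 arrays lay above every other testis array, and all pnd2 arrays were near background. The gd12 mean of 1660 ± 777 was 8.3 times the gd11 mean of 200 ± 67. The log2 difference was -0.20 ± 0.38 SE for gd14 minus gd11, -1.81 ± 0.42 for pnd2 minus gd14 and -2.00 ± 0.38 for pnd2 minus gd11. The last 2 depended on the offset. Under an offset of 71.6 they were -1.20 and -1.35, and under one of 3.92 they were -2.31 and -2.53.

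**Figure D2:**
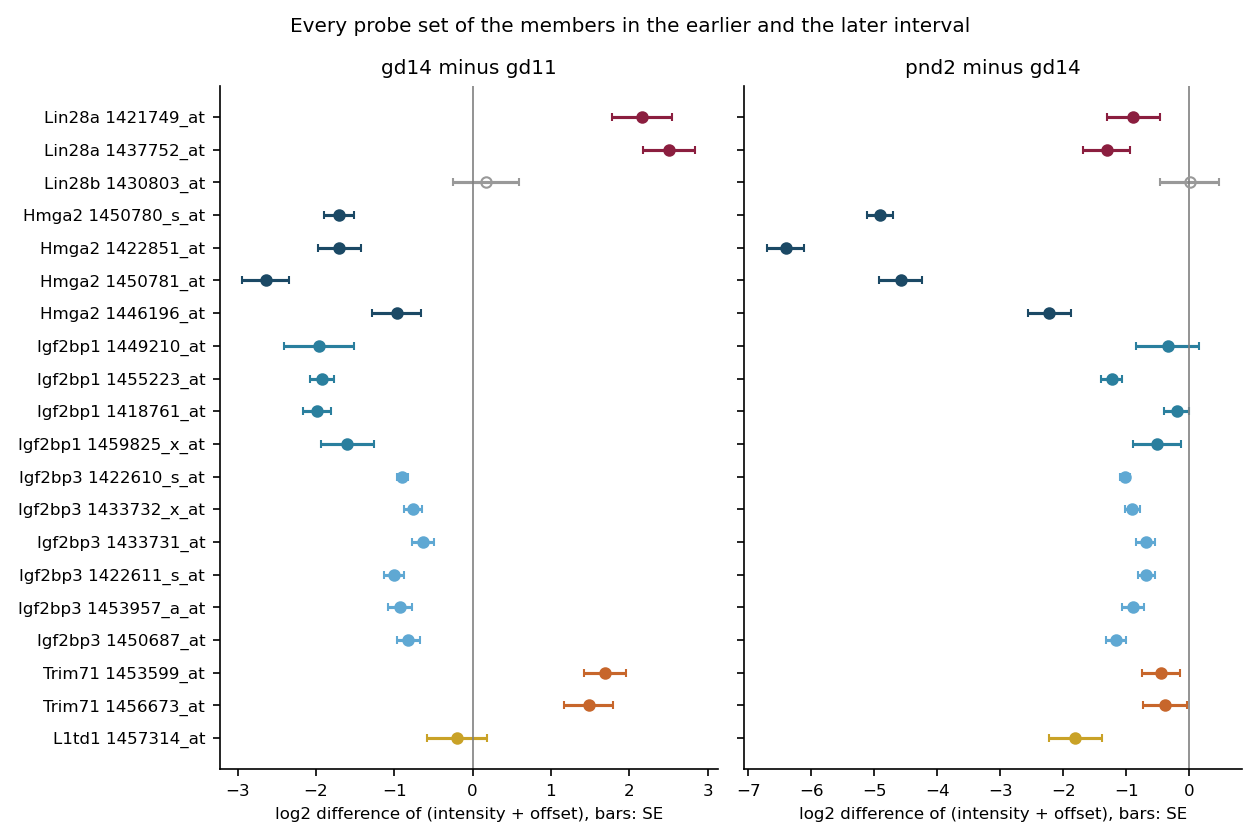
Log2 difference of log2(intensity + 22.4) for each of the 20 probe sets, gd14 minus gd11 on the left and pnd2 minus gd14 on the right, with bars of 1 SE and an open circle for the Lin28b probe set that did not pass the filter. Lin28a and Trim71 lie right of 0 in the earlier interval and left of it in the later one, Hmga2 and Igf2bp3 lie left of 0 in both, and the Igf2bp1 probe sets lie left of 0 in the earlier interval and spread between -0.20 and -1.23 in the later one.

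The 6 genes that passed the filter did not all follow the same course. The counts here use the 1 probe set taken for each gene. For pnd2 against gd11, all pnd2 arrays lay below all gd11 arrays for 4 of them (Hmga2, Igf2bp1, Igf2bp3 and L1td1), and above for 2 (Lin28a and Trim71). Over all 14338 genes, such separation was seen downward for 22% and upward for 22.5%. On the Lin28a probe set 1437752_at the pnd2 arrays (298 to 558) overlapped with gd11 (84.7 to 306). For gd14 against gd11, Hmga2 and Igf2bp3 were wholly lower (17.6% of all genes), and Lin28a and Trim71 wholly higher (22.3%). The other 3 probe sets of Igf2bp1 were wholly lower at gd14 too, at 531 to 586 against 1993 to 2660 on 1455223_at, 253 to 376 against 1175 to 1378 on 1418761_at, and 90.7 to 228 against 450 to 640 on 1459825_x_at. For pnd2 against gd14, 5 of the 6, all but Igf2bp1, were wholly lower (28.2%, with 24.1% wholly higher). On 1455223_at Igf2bp1 was wholly lower at pnd2 as well, at 163 to 275, and on the Trim71 probe set 1456673_at the pnd2 arrays (146 to 180) overlapped with gd14 (169 to 251). For gd12 against gd11, L1td1 alone among the 6 was wholly higher (10.6%), and for gd12 against gd14, Hmga2, Igf2bp3 and L1td1 were (16.2%). The Hmga2 probe set 1446196_at was also wholly higher at gd12 than at gd11. The other 3 probe sets of Igf2bp1 were wholly higher at gd12 than at gd14 too. On the Igf2bp3 probe sets 1433731_at and 1450687_at, gd12 and gd14 overlapped. In the limma fit, 48.6% of all genes were called for pnd2 minus gd11, 43.1% for gd14 minus gd11 and 31.7% for pnd2 minus gd14. For gd14 minus gd11, 23.7% of all genes were called higher and 19.3% lower, and for pnd2 minus gd14, 14.6% higher and 17.1% lower. The members were chosen with these contrasts known, so nothing is read from these shares. The 3 comparisons share the arrays of gd11, gd14 or pnd2.

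In the whole-newborn reference, the members split in another way. Lin28a read 6.77 and 27.3 on its 2 probe sets, and Trim71 8.7 and 3.85, all near background. The pnd2 testis means on the same probe sets were 629 and 432 for Lin28a, and 514 and 159 for Trim71. No fold is given over readings near background. Hmga2 read 329 in the newborn on 1450780_s_at, and its pnd2 testis mean was lower by 1.32 (a log2 difference of -1.32). The difference was -2.45 on 1422851_at and -1.01 on 1450781_at, where the pnd2 means were near background. On 1446196_at the newborn read 16.6, near background like the pnd2 testis. Igf2bp3 read 1460 on 1422610_s_at, with a log2 difference of -0.33, and its other probe sets gave -0.20 to -0.87. L1td1 read 21.9, near background like the pnd2 testis. For Igf2bp1 the newborn read 13.3, near background, on 1449210_at, beside a pnd2 testis mean of 524, and 149 on 1455223_at, beside 231 (a log2 difference of 0.53). The reference is 1 array of other tissue, so these differences have no replicate check.

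Single pools at gd11 and gd12 differed in the members together with tissue markers. At gd12, replicate 13 was the lowest array for Lin28a (153), Trim71 (191) and L1td1 (772), and it also had the lowest germ cell sum of the stage, 9390 against 33000 and 28400 on replicates 14 and 15. At gd11, replicate 16 was the highest array for Lin28a on both probe sets (588 and 306), with the lowest germ cell sum (1290) and the highest neural sum (81400) of the stage. Replicates 16 and 17 were the lowest gd11 arrays for Hmga2, at 8894 and 11941. The highest gd14 levels of Lin28a and Trim71 also stood at the stage with the highest germ cell sum. That sum included Dppa3 and Dppa5a, whose means went from 14000 and 7800 at gd14 to 751 and 759 at gd16. The germ cell sum was 20100 to 26700 at gd16 and 8270 to 12200 at pnd2. Its largest fall in intensity was that of Mael, from a mean of 10900 to 2790. Dazl alone of its markers had a higher mean at pnd2 (4970) than at gd16 (3410). Over the same stages the mean went from 508 to 629 for Lin28a (1421749_at) and from 295 to 514 for Trim71 (1453599_at). On both of these probe sets the gd16 and pnd2 arrays overlapped. The part of cell makeup in the members' levels was not tested.

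**Figure D3:**
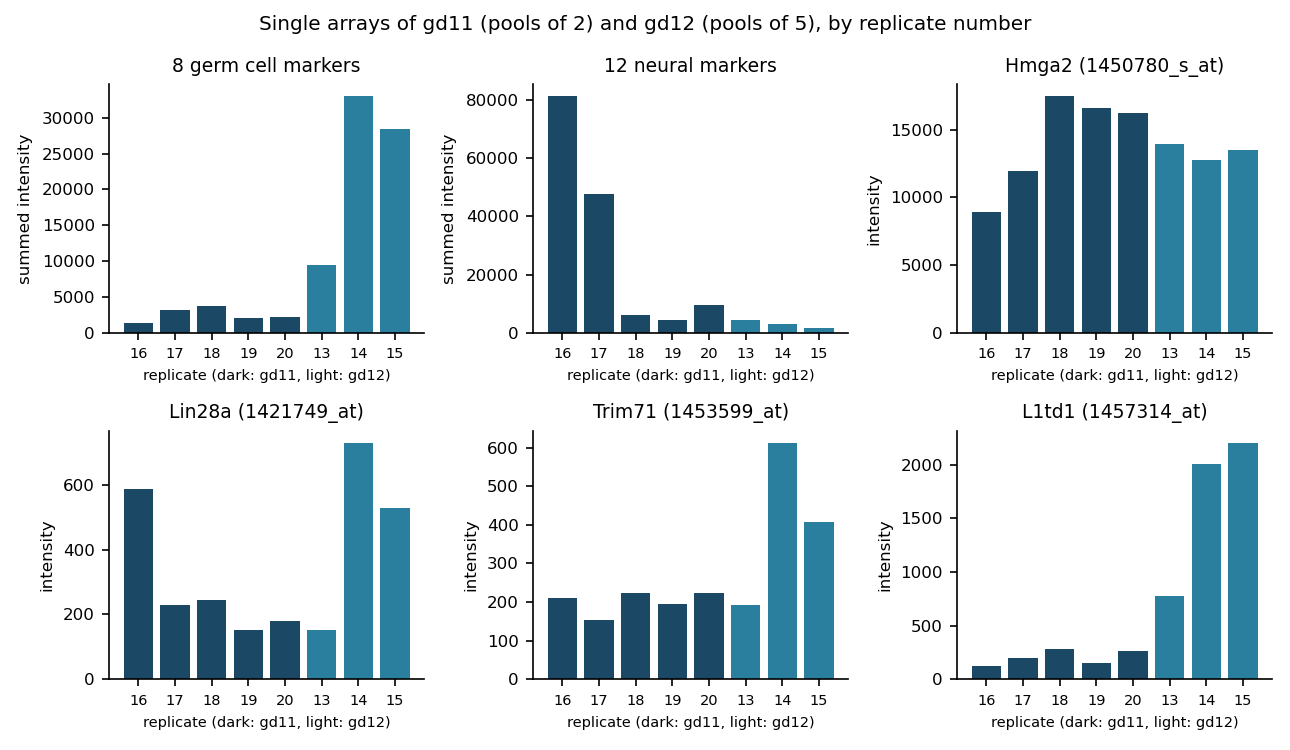
Values of the 5 gd11 arrays (dark) and 3 gd12 arrays (light), by replicate number, for the summed intensity of 8 germ cell markers and of 12 neural markers and for the intensity of Hmga2, Lin28a, Trim71 and L1td1. Replicate 13 is low for the germ cell sum, Lin28a, Trim71 and L1td1 at gd12, and replicates 16 and 17 are high for the neural sum and low for Hmga2 at gd11.

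For each member, the 3 genes outside the list with the most similar course were taken by Pearson correlation of log2 values over the 20 testis arrays, which share their stages. For Lin28a these were Sall4 (0.866), a zinc finger factor of germ cells, Sycp3 (0.863), a protein of the meiotic chromosome axis, and Trim13 (0.855). For Trim71 they were Slc35f2 (0.883), 1700029P11Rik (0.882) and Dapk2 (0.878). For Hmga2 they were Trim27 (0.972), Hba-x (0.97), an embryonic globin, and Trim28 (0.965), a corepressor. Those of Igf2bp3 were Sox11 (0.973), a transcription factor of neural and mesenchymal progenitors, Zik1 (0.969) and Epha4 (0.966), an ephrin receptor. Igf2bp1 was most alike Slc7a6 (0.902), Rab38 (0.888) and Ehmt1 (0.885). L1td1 was most alike Cep192 (0.937), a centrosome protein, Tet1 (0.928), which oxidises 5-methylcytosine, and Rhox9 (0.905), a homeobox gene. Rhox9 had a gd12 mean of 1150 ± 900 against 287 ± 104 at gd11 and 131 ± 44.5 at gd14, so its highest mean was at the same stage as that of L1td1. Unlike those of L1td1, its gd12 arrays (269 to 2070) overlapped with gd11 (132 to 397).

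The genes around the members were compared between pnd2 and gd11 with limma and Benjamini-Hochberg adjustment over all 14338 genes. At an adjusted p below 0.05, 24.2% of all genes were higher at pnd2 and 24.4% lower, and the median of all genes was -0.03. In the list of small RNA processing and let-7 turnover, 14 of 28 genes fell, 4 rose and 10 were not called, with a median log2 difference of -0.30. Dicer1, the enzyme that cuts microRNA precursors and itself a let-7 target, fell from 1430 ± 92.9 to 483 ± 73.5 (-1.53 ± 0.12 SE, adjusted p = 2.96e-09), and gave -0.82 with the mean of its probe sets. Tut4, which adds the uridine tail to let-7 precursors that LIN28A holds, fell from 3660 ± 386 to 1950 ± 102 (-0.90 ± 0.09, adjusted p = 1.47e-07). Its relative Tut7 stood at 1280 ± 66.1 and 1130 ± 115 (-0.18 ± 0.09, adjusted p = 0.0998). Tut7 was called lower with quantile normalization (-0.23, adjusted p = 0.0398) and without pnd2 replicate 1 (-0.26, adjusted p = 0.0399).

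Ago1 and Ago4, Argonaute proteins that hold mature microRNAs, fell, with log2 differences of -1.25 and -0.70. Without gd11 replicates 16 and 17, the value of Ago1 was -0.68. Dis3l2, the exonuclease that degrades uridylated let-7 precursors, fell by 0.56 (adjusted p = 0.00807), a call that was lost without pnd2 replicate 2 (-0.36, adjusted p = 0.0926), with the mean of its probe sets (-0.16, adjusted p = 0.334) and in a fit of gd11 and pnd2 alone (adjusted p = 0.0506). The rises were those of Trim25, a ligase that activates TUT4 (1.24), Xrn2, an exonuclease (0.80), Prkra, a partner of Dicer (0.46), and Tnrc6b, a silencing cofactor (0.34). The call of Tnrc6b was lost without pnd2 replicate 1 (adjusted p = 0.148) and without gd11 replicates 16 and 17 (adjusted p = 0.132).

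Among 27 measured let-7 target genes other than the members, 12 fell, 1 rose and 14 were not called, with a median of -0.47. Igdcc3, a cell surface protein of the embryo, fell from 2430 ± 852 to 221 ± 34.8 (-3.29 ± 0.21 SE, adjusted p = 2.69e-10), and gave -1.75 with the mean of its probe sets. Ccnd1, the G1 cyclin D1, fell by 2.39, and Fign, a microtubule-severing enzyme, fell by 1.73. Gatm, an enzyme of creatine synthesis, was the rise, from 136 ± 28.2 to 4160 ± 721 (4.73 ± 0.18, adjusted p = 3.39e-13). Myc stood at 608 ± 138 and 433 ± 33.2 (-0.44 ± 0.20, adjusted p = 0.0708), and was called lower without gd11 replicates 16 and 17 (-0.67, adjusted p = 0.00556). The call also appeared on leaving out gd11 replicate 16 alone (adjusted p = 0.0168) or gd12 replicate 13 (adjusted p = 0.0377). Mycn gave 0.11 ± 0.15 (adjusted p = 0.561) and Igf1r, the receptor of IGF1 and IGF2, -0.23 ± 0.11 (adjusted p = 0.0965).

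The IGF2 axis and the known mRNA partners of the IGF2BP proteins showed 9 lower and 3 higher of 18 genes, with a median of -0.29. Igf2, the fetal growth factor whose mRNA gave the IGF2BP family its name, fell from 23400 ± 5880 to 8420 ± 1350 (-1.44 ± 0.18 SE, adjusted p = 1.73e-06). Most of this was seen between gd11 and gd14, with -1.15 ± 0.18 (adjusted p = 3.32e-05), and -0.29 ± 0.20 (adjusted p = 0.283) from gd14 to pnd2. Igfbp2, an IGF-binding protein, fell by 1.76, and Irs1, an adaptor of the receptor, fell by 0.78. Igfbp1 fell by 1.83, from 116 ± 101 to 7.36 ± 5.03, near background, so that its size depends on the offset. Igfbp6 rose by 4.10 and Igf1, the postnatal growth factor, by 1.28. Cd44, an adhesion receptor and IGF2BP partner, rose by 2.95. H19, the RNA imprinted with Igf2, was not tested.

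Of 14 other high mobility group genes measured, 6 fell, 3 rose and 5 were not called, with a median of -0.21. Tox3 fell by 2.83, with a value of -2.18 without gd11 replicates 16 and 17. Hmgb2, a DNA-bending protein of dividing cells, went from 8850 ± 921 to 5800 ± 265 (-0.60 ± 0.10 SE, adjusted p = 7.27e-05). Hmgxb4 fell by 0.42 and Tox4 fell by 0.28. Hmgxb4 was not called with the mean of its probe sets (adjusted p = 0.375), and Tox4 lost its call when single arrays were left out, with an adjusted p of 0.192 without pnd2 replicate 3, 0.0773 without pnd2 replicate 1, and 0.0556 and 0.0554 without gd11 replicates 19 and 20. Tox rose by 1.08, Ubtf, a factor of ribosomal RNA transcription, by 0.58, and Hmgb3 by 0.44.

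Pluripotency and early germ cell genes, the setting in which Lin28a, Trim71 and L1td1 are best known, showed 7 lower, 4 higher and 7 not called of 18, with a median of -0.56. The list shares 6 genes with the 8 germ cell markers. Pou5f1, which encodes OCT4, stood at 144 ± 55.7 at gd11, 2260 ± 127 at gd14 and 190 ± 85.8 at pnd2, so that pnd2 minus gd11 was 0.32 ± 0.37 (adjusted p = 0.508) while gd14 minus gd11 was 3.84 (adjusted p = 1.42e-07). Sall4 rose by 1.39 ± 0.32 SE (adjusted p = 0.00128), beside 1.27 for Lin28a and 1.23 for Trim71. Ddx4 and Dazl, RNA-binding proteins of germ cells, rose by 4.38 and 4.00. Ddx4 had a gd11 mean of 65.3, near background, and gave 3.74 under the offset of 71.6. Dnd1 rose by 1.07, a call lost without pnd2 replicate 2 (0.93, adjusted p = 0.06). Dppa3, Dppa5a and Utf1, genes of pluripotent and primordial germ cells, fell, with -2.84 ± 0.40 for Dppa3 (adjusted p = 9.41e-06) and -1.92 for Dppa5a. Utf1 went from 450 ± 111 to 145 ± 43.8. All 3 were higher at gd14 than at gd11, by 5.08, 2.71 and 2.98 in that order. Dppa3 stood at 36.6 at pnd2, near background, and gave -2.11 under the offset of 71.6. Sox2, a factor of both germ cells and neural tissue, fell by 3.85 from 2900 ± 3540, with a value of -2.18 without gd11 replicates 16 and 17.

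Of 26 cell division genes, 12 fell and 14 were not called, with a median of -0.25. Rrm2, a subunit of ribonucleotide reductase, fell by 1.69, and Ccne1, cyclin E1, fell by 1.35. Cenpe and Aurka, proteins of mitosis, fell too, with -0.82 and -0.76. Cenpe was not called with the mean of its probe sets (adjusted p = 0.592). Mki67, the proliferation marker Ki-67, went from 6080 ± 486 to 4450 ± 165 (-0.45 ± 0.10 SE, adjusted p = 0.000954). Without gd11 replicates 16 and 17, 10 of the list were lower and 2 higher.

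**Figure D4:**
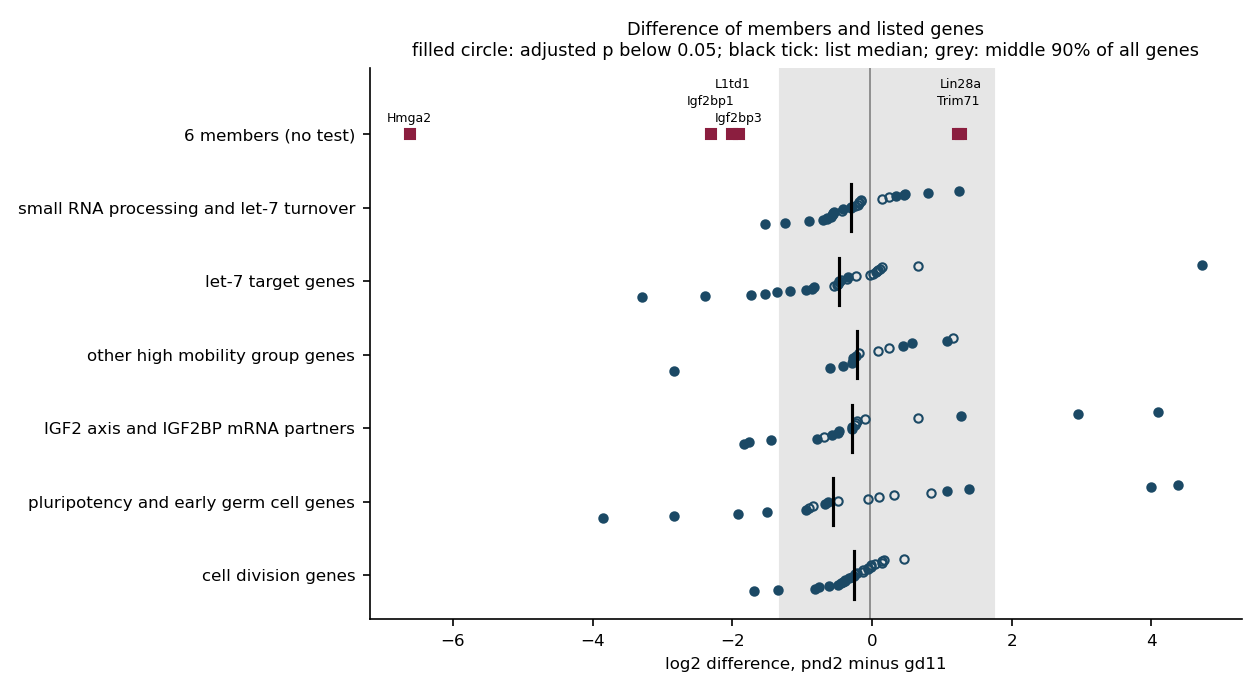
Log2 difference, pnd2 minus gd11, of the 6 members (squares, not tested) and of the genes in 6 lists (circles, filled where the adjusted p is below 0.05), with a black tick at each list's median and the middle 90% of all 14338 genes in grey, from -1.32 to 1.74. Hmga2 lies at -6.62, left of every listed gene, Lin28a and Trim71 lie inside the grey band, and the list medians lie between -0.56 and -0.21.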

How the data were processed

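Total RNA of whole testes was hybridised to single-colour Affymetrix arrays. The deposited values are linear probe-set intensities made by the authors with GCOS, according to the submitters' processing notes. The version and algorithm of GCOS are not given in the sources used. The mean intensity of all 21 arrays, with 2% trimmed at each end, was 500, so arrays were used as deposited. Gene names came from the platform's annotation, matched through Entrez identifiers to a GRCm38.p6 gene table (34741 of 34945 probe sets with 1 gene matched). Another 932 probe sets with several genes, 9160 with none and 64 controls named nothing.

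Intensities were transformed to log2(intensity + 22.4), the offset being the 20th percentile of the testis values. A probe set was kept if it exceeded the 40th percentile of its array in 3 or more of 20 testis arrays, and the one whose log2 values averaged highest stood for its gene (14338 genes). One limma fit (version 3.58.1, R 4.3.3; lmFit, eBayes with trend) held 6 stage means, with Benjamini-Hochberg adjustment over all genes and calls at an adjusted p below 0.05. It was tested on simulated data. It assumes 1 spread per gene for all stages. The labels name no batch. Per the series' design text each animal came from its own dam, while at gd11 and gd12 the spread is between pools.

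The members and gene lists were chosen with earlier results of these data known. Named genes were all members, the 4 called genes of each list with the largest rise and the 4 with the largest fall, 13 genes fixed by name, and the 3 genes most correlated with each member. Genes named as not tested were taken from the lists. Alternatives changed the offset, normalization, filter, probe set rule, arrays fitted and variance model, or left out arrays. MicroRNA and promoter sequences came from RefSeq (GRCm38.p6). The promoter of Igf2bp1 was not used here.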

Additional observations from a re-analysis of the deposited data

Results flagged for a closer look

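Among the 5 gd11 arrays, replicate 16 read 588 for Lin28a (1421749_at) while the others read 151 to 246. Its gap to the next array, as a share of the range, was 0.782, above Dixon's 95% critical value of 0.71. The second Lin28a probe set read 306 on that array, against 84.7 to 195 on the others, and was not examined with this rule. The rule was applied to linear intensities of the probe set used for each gene. Of 6 members examined at gd11, Lin28a was the only one with such an array. Chance alone gives such a value in about 1 in 20 groups. The same array had the lowest germ cell sum of gd11 (1290) and the highest neural sum (81400), and their part in the value was not tested.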

How the results depend on the processing

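No paired analysis was run, since the replicate numbers run on over the series and the labels pair no arrays between stages. The counts of called genes and of called list members stayed within 1.5 times their reported values under every alternative run. When single arrays were left out, 5965 to 7056 genes were called for pnd2 minus gd11, 5018 to 6245 for gd14 minus gd11 and 3434 to 5026 for pnd2 minus gd14. In the lists, the ranges were 15 to 20 for small RNA processing and let-7 turnover, 12 to 15 for let-7 targets, 7 to 11 for high mobility group genes, 9 to 13 for the IGF2 axis, 8 to 14 for pluripotency and germ cell genes and 10 to 13 for cell division genes. With the mean of all kept probe sets of a gene, Igf1r turned to 0.07 for gd14 minus gd11 (adjusted p = 0.662) and -0.14 for pnd2 minus gd14 (adjusted p = 0.427), Dis3l2 to 0.08 for pnd2 minus gd14 (adjusted p = 0.734) and Tet1 to 0.36 for gd14 minus gd11 (adjusted p = 0.0245), and the cause was not tested. Of the 504 member values under alternatives, 11 moved by more than the spread between replicates, and a change of sign was seen only for Igf2bp1, pnd2 minus gd14. Quantile normalization moved the median of all genes by at most 0.03 on the log2 scale. Dim probe sets limit Lin28b at all stages and L1td1 at pnd2 to values near background.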
